A study of Homo sapiens with 38 samples.

Results

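A set of 8 Notch pathway genes was described through the protein-bound and acetylated DNA around them in Jurkat, a long-established line grown from a human T-cell acute lymphoblastic leukaemia: the receptors NOTCH1, NOTCH2 and NOTCH3, the DNA-binding effector RBPJ, the target genes HES1 and HES4, and the feedback regulators DTX1 and NRARP. The members were all regions of 3 deposited peak lists (GATA3, BHLHE40 and the histone mark H3K27ac) that overlapped the RefSeq record of 1 of these genes or the 50 kb on each side, here called its window. There were 133 such regions of 168784 in all: 19 of 29009 GATA3 regions, 28 of 26205 BHLHE40 regions and 86 of 113570 H3K27ac regions. None crossed the edge of a window, and no windows overlapped. The lists came from chromatin immunoprecipitation and sequencing, in which DNA fixed to a protein is pulled down with an antibody, sequenced and searched for places with many reads. The series held 38 samples in 19 groups of 2, and 3 groups were used: Ctrl_LV cells (Jurkat cells carrying a control lentivirus) selected with puromycin, treated with a phorbol ester (PMA, 50 ng/ml) together with the calcium ionophore ionomycin (500 ng/ml), which mimic T-cell receptor signalling, and pulled down for 1 of the 3 targets. The treatment lasted 5 hours per the sample characteristics and 2 hours per the treatment protocol. All 3 groups shared the virus and the treatment, and the 16 other groups were not analysed here.

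Each list stood for both samples of its group and gave no value per sample. There was therefore no replicate spread and no test, and all values below are descriptions of 1 list per target in 1 cell line and 1 condition. The authors supplied the signal value (a measure of enrichment), score and q-value of each region, and a rank is the place of a region by signal value within its own list. Sequencing depth is unknown. As a check of the cell type, an H3K27ac region with a −log10 q of at least 5 overlapped the records of 8 of 9 T-cell marker genes and of 0 of 4 B-cell, 0 of 4 myeloid and 0 of 3 epithelial marker genes, against 55% of all coding genes.

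Notch receptors sit in the cell membrane. When a ligand on a neighbouring cell binds, the receptor is cut by membrane proteases, and its inner part moves to the nucleus, where it joins RBPJ on DNA and turns on genes such as HES1, HES4, DTX1 and NRARP. The pathway commits early thymocytes to the T-cell lineage, and activating mutations of NOTCH1 are common in T-cell acute lymphoblastic leukaemia. GATA3 is a zinc-finger factor of T-cell development, and BHLHE40 is a basic helix-loop-helix repressor of the same superfamily as the HES proteins. H3K27ac marks active promoters and enhancers.

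BHLHE40 lay at the start of 5 of the 8 genes and GATA3 at the start of 1. With 8 genes, these counts are not far from the shares over all coding genes, and no difference was tested. A BHLHE40 summit (the highest point of a region) fell within 1 kb of a start of NOTCH1, NOTCH2, RBPJ, HES1 and HES4, against 45.2% of 20033 protein-coding genes. A GATA3 summit fell there only at HES1, against 20.5% of coding genes. NOTCH1, NOTCH2, RBPJ and HES4, 4 of 8, had BHLHE40 without GATA3 at the start, against 26.4% of coding genes. These shares rest on 8 genes and on the distance used. BHLHE40 summits were at 3 genes within 500 bp (NOTCH1, NOTCH2 and HES1) and at 5 within 5 kb. GATA3 summits were at 1 gene within 500 bp and 3 within 5 kb (HES1, HES4 and DTX1). For DTX1, which had no listed start, either end of the gene record was counted as a start. The promoter windows of the 5 genes, from 250 bases before to 50 after the start, are shown because the factor regions described below lie on or beside them. They are the RefSeq sequences of GRCh38.p14, 5′ to 3′ on the strand of the gene, and capitals mark exact matches to TGGGAA, the core of the site bound by RBPJ, or to the GATA words AGATAA and TGATAA, on either strand.
HES1, chr3:194135898-194136197, plus strand: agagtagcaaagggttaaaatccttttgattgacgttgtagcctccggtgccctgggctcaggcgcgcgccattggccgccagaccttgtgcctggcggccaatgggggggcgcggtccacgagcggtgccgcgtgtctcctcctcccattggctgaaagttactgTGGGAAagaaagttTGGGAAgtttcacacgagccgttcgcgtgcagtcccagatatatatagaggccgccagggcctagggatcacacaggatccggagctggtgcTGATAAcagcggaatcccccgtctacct
HES4, chr1:1000048-1000347, minus strand: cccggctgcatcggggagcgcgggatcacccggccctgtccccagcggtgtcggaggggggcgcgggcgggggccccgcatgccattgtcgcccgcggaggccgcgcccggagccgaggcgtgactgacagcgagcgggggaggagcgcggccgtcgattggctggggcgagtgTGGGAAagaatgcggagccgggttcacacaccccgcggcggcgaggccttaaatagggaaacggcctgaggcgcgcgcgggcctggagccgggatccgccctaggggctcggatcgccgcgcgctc
RBPJ, chr4:26319496-26319795, plus strand: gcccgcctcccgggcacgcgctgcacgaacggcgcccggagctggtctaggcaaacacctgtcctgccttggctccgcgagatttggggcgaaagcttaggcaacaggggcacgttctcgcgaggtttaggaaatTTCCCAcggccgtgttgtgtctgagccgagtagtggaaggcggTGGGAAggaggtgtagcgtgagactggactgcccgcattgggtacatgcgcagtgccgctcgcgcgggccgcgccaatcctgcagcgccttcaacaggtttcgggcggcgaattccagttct
NOTCH1, chr9:136545999-136546298, minus strand: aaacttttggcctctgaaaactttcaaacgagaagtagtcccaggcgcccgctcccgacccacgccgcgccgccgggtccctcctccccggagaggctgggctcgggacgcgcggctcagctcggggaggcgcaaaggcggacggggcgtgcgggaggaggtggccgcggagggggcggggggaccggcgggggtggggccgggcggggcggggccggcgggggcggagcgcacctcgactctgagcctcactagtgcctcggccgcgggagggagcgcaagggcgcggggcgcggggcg
NOTCH2, chr1:120069613-120069912, minus strand: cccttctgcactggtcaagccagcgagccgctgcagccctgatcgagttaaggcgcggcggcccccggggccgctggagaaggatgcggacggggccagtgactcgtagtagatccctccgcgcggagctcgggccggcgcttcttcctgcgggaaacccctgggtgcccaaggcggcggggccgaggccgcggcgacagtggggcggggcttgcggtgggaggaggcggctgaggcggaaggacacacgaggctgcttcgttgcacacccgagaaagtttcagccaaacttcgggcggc

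In the table of promoter sequences, 7 of the 8 genes had entries, with 11 windows in all because RBPJ had 5 starts. DTX1 had no entry. TGGGAA was found in 3 of the 11 windows, one each for HES1, HES4 and RBPJ, and in 24% of all 35116 promoters of that length. HES1 carried 2 copies on its own strand, with first bases 84 and 70 bp upstream of the start, and RBPJ carried 1 copy on each strand, 115 and 72 bp upstream. At least 2 copies were present in 3.8% of all promoters. HES4 had a single copy 76 bp upstream. The HES1 window also held TGATAA, 22 bp downstream of the start, where 16.3% of all promoters held AGATAA or TGATAA or both. The palindromic E-box preferred by BHLHE40, CACGTG, was in none of the 11 windows and in 7.26% of all promoters. The looser E-box CANNTG, which also counts every CACGTG, was in 3 of the 11 windows (2 of RBPJ and 1 of NRARP). It was in 68.7% of all promoters and 65.1% of those of coding genes. The share of G and C bases was 70.3% to 78.3% in the windows of NOTCH1, NOTCH2, NOTCH3, HES4 and NRARP. It was 59% for HES1 and 35.3% to 75% for RBPJ, beside a median of 58.7% over all promoters. Its bearing on the motif counts was not tested. The BHLHE40 summits near the starts of NOTCH1, RBPJ and HES4, and that of the strongest HES1 region, lay outside these windows. The sequence under those summits was not searched. The windows of NOTCH3 and NRARP overlapped no BHLHE40 region.

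**Figure D1:**
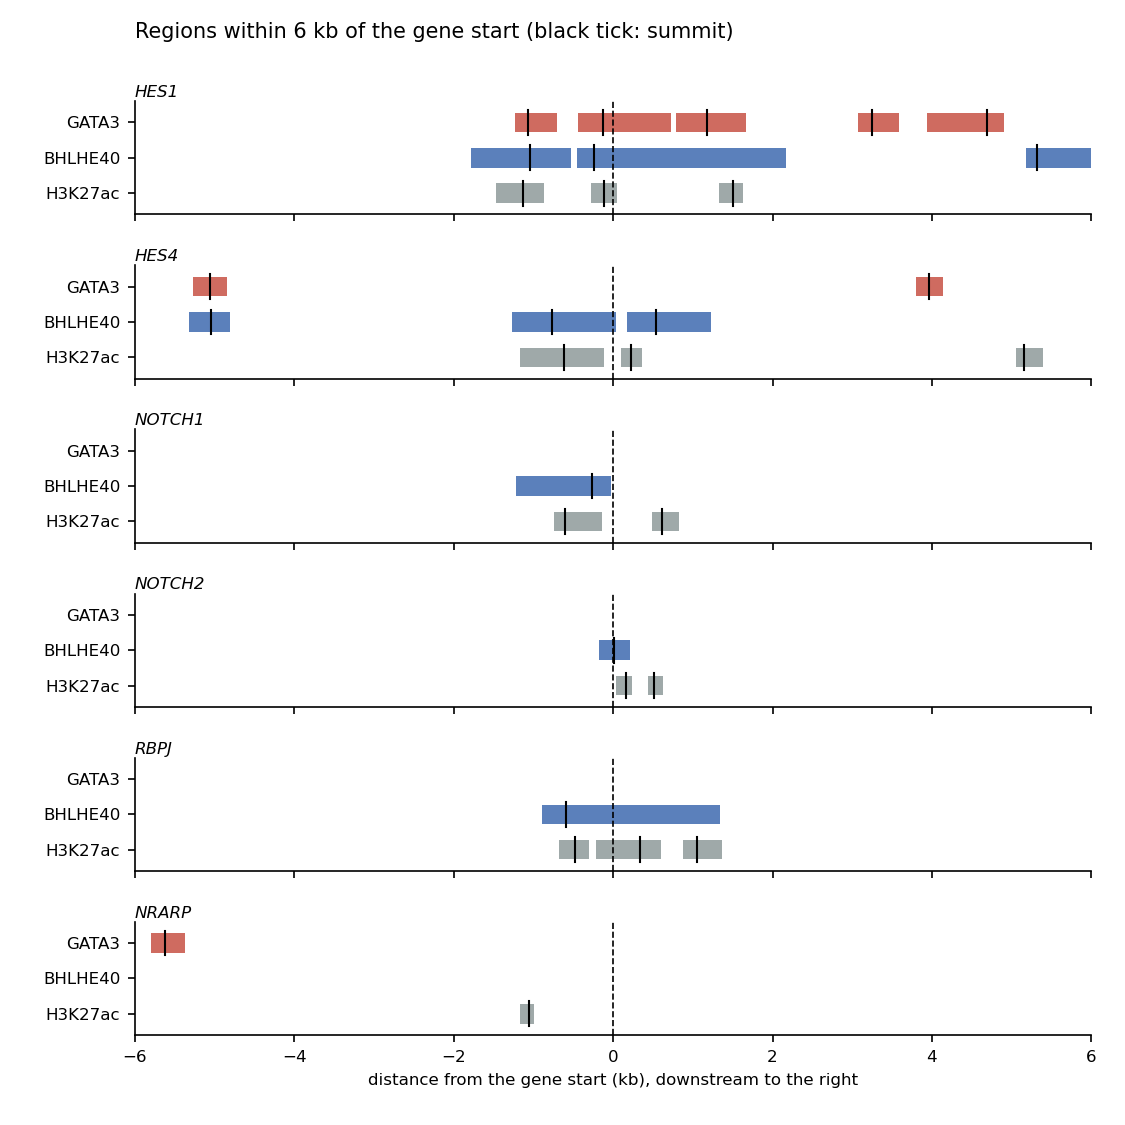
Regions within 6 kb of the start of HES1, HES4, NOTCH1, NOTCH2, RBPJ (the start at 26319746) and NRARP. Bars span each GATA3 (red), BHLHE40 (blue) and H3K27ac (grey) region, black ticks mark summits, the dashed line is the gene start, and the x axis is the distance in kb with downstream to the right. HES1 had regions of all 3 lists across its start, whereas NOTCH1, NOTCH2 and RBPJ had BHLHE40 and H3K27ac regions but no GATA3 region in this range.

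Among the receptors, NOTCH1 had a strong BHLHE40 region at its start and no GATA3 region in its record. The gene lies on the minus strand of chromosome 9 (136494433 to 136546048). Its promoter region of BHLHE40 (chr9:136546079-136547265) had a signal value of 33.2, ranking 1062 of 26205, with the summit 260 bp upstream of the start. It overlapped an H3K27ac region with a modest signal value of 4.36 (rank 17935 of 113570). The H3K27ac regions inside the NOTCH1 record numbered 7, and none overlapped a factor region. The strongest of them (chr9:136538538-136539216) lay 7029 bp downstream of the start with a signal value of 7.05, above that of the promoter region. GATA3 had 2 regions in the window. The nearer, 6466 bp upstream of the start, had a signal value of 9.03 and overlapped neither BHLHE40 nor H3K27ac. The other lay at the start of the neighbour SEC16A, a protein of secretory vesicle formation, where all 3 lists met. There the GATA3 summit was 61 bp from the SEC16A start and 38 bp from a BHLHE40 summit, with signal values of 12.4 and 13.9, and the H3K27ac region had a signal value of 13.8, ranking 742.

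NOTCH2, a receptor closely related to NOTCH1, had BHLHE40 over its start and H3K27ac regions that all fell short of a −log10 q of 5. The gene spans 119911553 to 120069662 of chromosome 1, on the minus strand. A BHLHE40 region (chr1:120069454-120069836) covered its start with the summit 7 bp away, a signal value of 10.4 and rank 11132. The score of that region was 771. At a score of at least 830, 4 members kept a BHLHE40 summit within 1 kb of a start, and NOTCH2 did not. The window held 12 H3K27ac regions, and none reached a −log10 q of 5, the only window of the 8 for which this was so. At least 1 such region was found in the windows of 79.5% of coding genes. The highest H3K27ac signal value was 3.78, at a place 81887 bp downstream of the start. The GATA3 regions, 83616 bp downstream and 19474 bp upstream of the start, had signal values of 7.34 and 9.65 and overlapped no region of another list. The promoter region is uncertain because near-identical copies of the first part of NOTCH2 lie elsewhere on chromosome 1. Without gaps, the NOTCH2 promoter window matched that of NOTCH2NLA at 284 of 285 aligned bases (99.6%) and a window of NOTCH2NLB at 267 of 268 (99.6%). No region of the 3 lists lay within 1 kb of either of those starts. NOTCH2NLC matched at 240 of 266 bases (90.2%) and had 1 BHLHE40 and 2 H3K27ac regions within 1 kb of its start. How reads with several matches were treated is not given in the sources used here.

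NOTCH3 was the member without GATA3. Its record, 15159038 to 15200995 of chromosome 19 on the minus strand, held no factor region, and the nearest GATA3 summit was 90720 bp from its start. The BHLHE40 regions of the window numbered 2. One lay at the start of HACL2 (signal value 16.5, rank 4869), on an H3K27ac region with a signal value of 18.9, the highest of all 86 and rank 202. The other lay between NOTCH3 and EPHX3, 22536 bp upstream of the NOTCH3 start, with a signal value of 9.92 on an H3K27ac region of 6.11. Inside the NOTCH3 record the 3 H3K27ac regions had signal values from 3.05 to 3.82, and each had a −log10 q below 5.

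**Figure D2:**
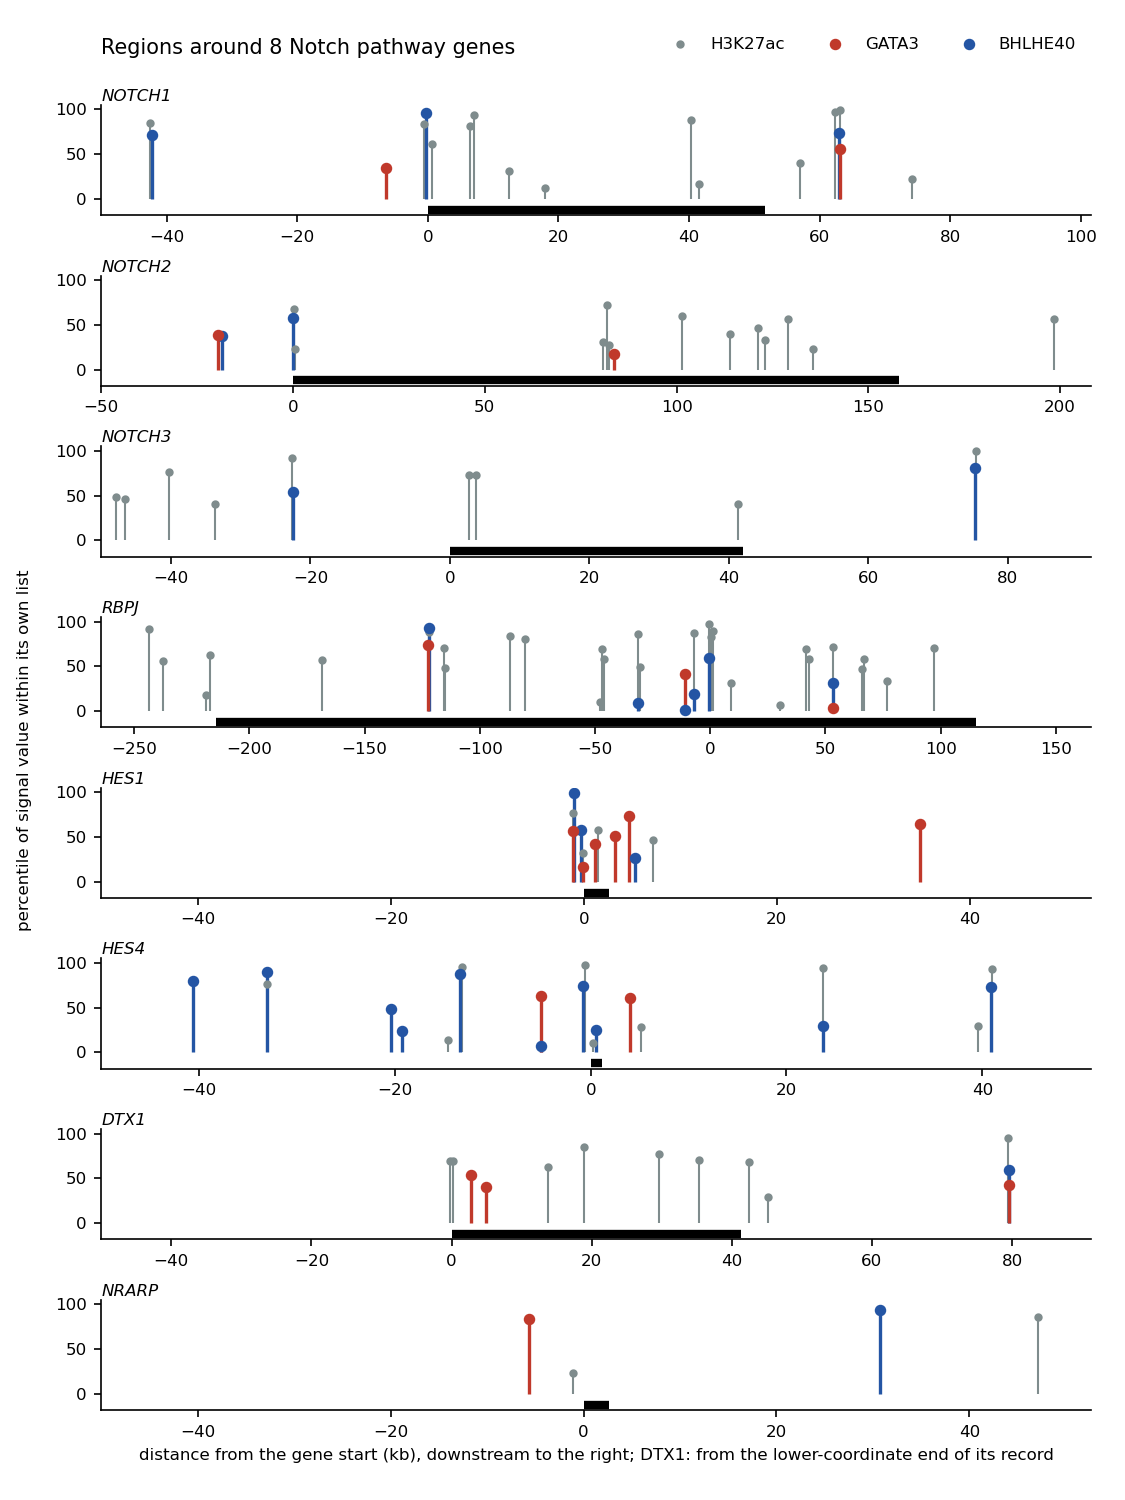
Positions of all 133 regions in the 8 windows. Each stem stands at a region's summit, its height is the percentile of the signal value within its own list (GATA3 red, BHLHE40 blue, H3K27ac grey), the black bar is the gene record, and the x axis is the distance in kb from the gene start (for DTX1 from the lower-coordinate end), on a scale of its own in each panel. The highest blue stem stands beside the HES1 start, and the NOTCH3 panel has no red stem.

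RBPJ is the factor through which all Notch receptors act. Inside the gene it had 3 places where GATA3 and BHLHE40 overlapped, not all of them strong. A wide BHLHE40 region lay at a cluster of its starts. The record is the longest of the 8, 329683 bp on chromosome 4 (26105449 to 26435131, plus strand), and its 28 H3K27ac regions were the largest number. The BHLHE40 region chr4:26318853-26321090, 2238 bp wide with a signal value of 10.7, covered the starts at 26319746 and 26321014, and its summit lay 591 bp upstream of the first. It overlapped 3 H3K27ac regions, the strongest with a signal value of 8.92 (rank 3551) and a −log10 q of 64. GATA3 was absent there. The nearest GATA3 summit lay 10978 bp upstream of the start, in a place shared with BHLHE40, with summits 12 bp apart. Signal values there were 10 and 3.57, without H3K27ac, and the BHLHE40 region was among the weakest of its list (rank 25788 of 26205).

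The strongest RBPJ place for both factors was an internal one. It lay 33640 bp downstream of the first listed start, at chr4:26196439-26197790 for GATA3 (signal value 17.8, rank 7737) and chr4:26197128-26197833 for BHLHE40 (signal value 26.4, rank 1782), on an H3K27ac region with a signal value of 5.04. The summits stood 478 bp apart. At the third place, chr4:26372574-26373186 for GATA3, the summits of GATA3 and BHLHE40 were 2 bp apart and the H3K27ac summit was 17 bp from that of GATA3. Signal values there were 5.21 for GATA3 (rank 28071 of 29009, among the weakest of its list), 7.37 for BHLHE40 (rank 17878) and 3.74 for H3K27ac (rank 32352).

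HES1, a repressor and the best known direct target of Notch, had the strongest BHLHE40 region and the most GATA3 regions of the 8 genes. Its record is short (194136148 to 194138732 of chromosome 3, plus strand). The BHLHE40 region chr3:194134364-194135616 had a signal value of 62.1 and ranked 196 of 26205, with the summit 1037 bp upstream of the start. A region ranking as high or higher was in the window of 1.67% of coding genes. A GATA3 region (chr3:194134912-194135440, signal value 12.6, rank 12527) lay wholly within it, with summits 37 bp apart. A second BHLHE40 region (chr3:194135692-194138314) ran 2623 bp across the start and most of the gene, a width reached by 2.04% of BHLHE40 regions, with a signal value of 10.5 and the summit 243 bp upstream. GATA3 regions with signal values of 7.24 and 10.1 lay inside this wide region, 1 over the start and 1 in the gene. The first had its summit 129 bp upstream of the start, 48 and 62 bp from the middles of the TGGGAA copies shown above and 154 bp from that of TGATAA.

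Acetylation at HES1 was weak beside this binding. The 4 H3K27ac regions had signal values of 3.84, 3.03, 3.36 and 3.23, and the strongest, under the strongest BHLHE40 summit, ranked 26915 of 113570. It alone had a −log10 q of at least 5. Of the 197 BHLHE40 regions at least as strong as that of HES1, itself included, 191 overlapped GATA3 and 190 overlapped H3K27ac. In 33 of those 190 the strongest overlapping H3K27ac region had a signal value at or below that at HES1, and the median was 5.8. Beyond the gene, GATA3 regions without BHLHE40 or H3K27ac lay 3254, 4687 and 34846 bp downstream of the start, with signal values of 11.5, 17.8 and 14.4. A further BHLHE40 region, 5325 bp downstream, had a signal value of 6.87 and overlapped neither GATA3 nor H3K27ac. The score of the GATA3 region over the start was 804, so that no member kept a GATA3 summit within 1 kb of its start at a score of at least 830.

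HES4, a relative of HES1, had the most BHLHE40 regions, of which most lay at neighbouring genes. Its record, 998964 to 1000097 of chromosome 1 on the minus strand, stands in a gene-dense stretch whose window also reached 6 other coding genes. Of 10 BHLHE40 regions in the window, HES4 was the nearest coding gene for 3, and 6 had their summit within 1 kb of some coding start. A pair of BHLHE40 regions had summits on either side of the HES4 start, and the stronger covered it. That region (chr1:1000064-1001360) had a signal value of 13.9, its summit 765 bp upstream, and lay on an H3K27ac region with a signal value of 9.95 (rank 2527). The weaker peaked 544 bp downstream and had a signal value of 6.75. The strongest BHLHE40 region of the window (signal value 22.4, rank 2501) lay inside AGRN, which encodes agrin, and the next (signal value 20.3) peaked 4 bp from the start of ISG15, an interferon-induced gene. GATA3 had 2 regions, 3970 bp downstream and 5060 bp upstream of the HES4 start, with signal values of 13.5 and 14.1. The upstream one was shared with BHLHE40, summits 10 bp apart, and neither overlapped H3K27ac.

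DTX1, a ubiquitin ligase that binds Notch receptors, had GATA3 and H3K27ac within its record and no BHLHE40 there. The record spans 113056730 to 113098025 of chromosome 12, and the strand was not read because the gene had no promoter entry, so distances are from its lower-coordinate end. GATA3 regions lay 2715 and 4910 bp above that end, with signal values of 12 and 9.8, and overlapped no region of another list. H3K27ac regions flanked the end, 177 bp below and 207 bp above it, with signal values of 3.64 and 3.62 and a −log10 q just under 5 in each. Within the record 5 H3K27ac regions had signal values up to 4.49. The BHLHE40 region of the window (signal value 10.8) peaked 520 bp from the higher-coordinate end of the record of the neighbour RASAL1. It lay there together with GATA3 (signal value 10.1) and H3K27ac (signal value 7.38). The strand of RASAL1 was not read either.

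NRARP, a small ankyrin-repeat inhibitor of the Notch complex, had the fewest regions. Its record is 137299631 to 137302271 of chromosome 9, on the minus strand. The window held 1 GATA3, 1 BHLHE40 and 2 H3K27ac regions, and no pair of them overlapped. The GATA3 region (chr9:137307640-137308068) had a signal value of 24.5, the highest of the 19, with rank 4902 of 29009. It lay 5626 bp upstream of the NRARP start inside the record of EXD3. The BHLHE40 region had a signal value of 26.5 (rank 1761) and lay inside NELFB, 30763 bp from the NRARP start. The H3K27ac region nearest to the start, 1060 bp upstream, had a −log10 q of 1.51.

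Across the 8 windows, a GATA3 region was present for 7 genes, against 76.1% of coding genes, and a BHLHE40 region for all 8, against 80.0%. An H3K27ac region was also present for all 8, against 92.6%. These shares are near the background. Windows grow with the gene, and their median length was 142 kb for the members and 124 kb for all coding genes. Per 100 kb of window, the members had a median of 1.15 GATA3, 1.4 BHLHE40 and 6.35 H3K27ac regions, beside 0.992, 1.62 and 5.9 over all coding genes. Single genes stood away from these medians. HES1 had 5.85 GATA3 regions per 100 kb, a density reached by 2.47% of coding genes, and HES4 had 9.89 BHLHE40 regions, reached by 0.544%. By count, the 6 GATA3 regions of HES1 were reached by 10% of coding genes and the 10 BHLHE40 regions of HES4 by 2.74%. H3K27ac density ranged from 1.95 at NRARP to 8.9 at HES4.

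**Figure D3:**
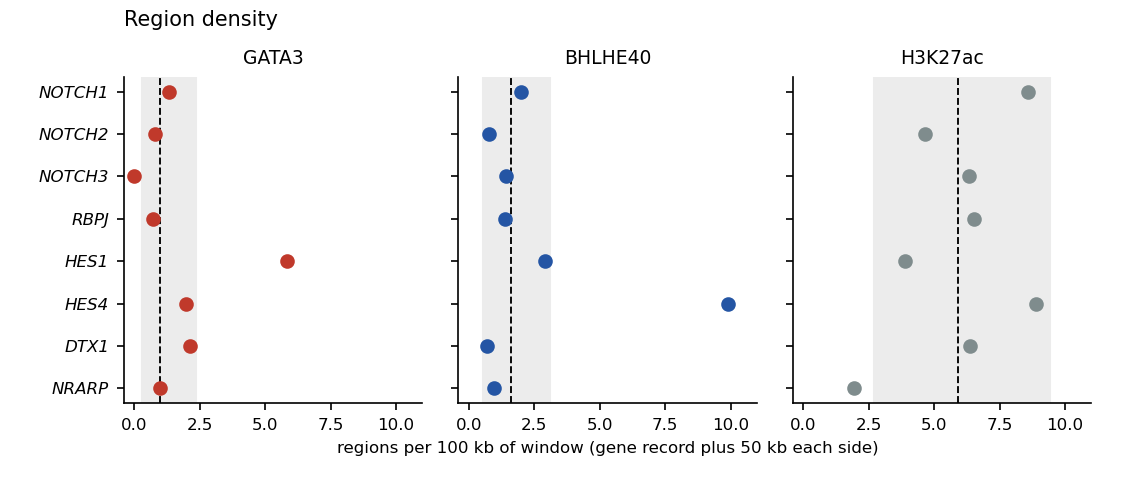
Regions per 100 kb of window for each of the 8 genes, by list. The dashed line is the median and the shaded band the middle 50% of 20033 protein-coding genes. HES1 lies beyond the band for GATA3 at 5.85, HES4 beyond it for BHLHE40 at 9.89, NOTCH3 is at 0 for GATA3, and NRARP is below the band for H3K27ac at 1.95.

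The members differed in whether their windows held strong regions. A BHLHE40 region among the strongest 10% of its list lay in the windows of NOTCH1, RBPJ, HES1, HES4 and NRARP, 5 of 8, against 21.9% of coding genes. For HES4 and NRARP that region lay in a neighbour's record, as described above. Among the strongest 5% were the regions of NOTCH1 and HES1, 2 of 8, against 11.4%. No window held a GATA3 region among the strongest 10%, against 17.9% of coding genes, nor among the strongest 5%, against 9.58%. For H3K27ac, 5 windows (NOTCH1, NOTCH3, RBPJ, HES4 and DTX1) held a region among the strongest 10%, against 68.8%, and 4 (all of these but DTX1) held 1 among the strongest 5%, against 51.6%. Each of these regions at NOTCH3 and DTX1 was in or nearest to a neighbour's record. So were the NOTCH1 regions among the strongest 5%, whereas RBPJ and HES4 had such a region at a start of their own.

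Acetylation at the starts varied among the 8 genes. An H3K27ac summit lay within 1 kb of a start of NOTCH1, NOTCH2, RBPJ, HES1 and HES4, and of a record end of DTX1. This made 6 of 8 genes, against 54.4% of coding genes. With a −log10 q of at least 5, such a summit lay at NOTCH1, RBPJ and HES4 only, 3 of 8, against 47.6%.

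Overlap between the factors was counted by region. Of the 19 GATA3 regions, 9 (47.4%) overlapped BHLHE40, beside 48.7% of the whole GATA3 list, and 7 (36.8%) overlapped H3K27ac, beside 49.1%. Of the 28 BHLHE40 regions, 19 (67.9%) overlapped H3K27ac, beside 76.4% of the whole list. The overlap with GATA3 was 8 of 28 (28.6%), beside 53% of the whole list. HES4 alone gave 10 of the 28, of which 1 overlapped GATA3, and without its window the share was 7 of 18 (38.9%). Leaving out each of the other genes in turn gave 22.7% (5 of 22, without RBPJ) to 30.8%. In the 9 shared GATA3 regions the median distance to the BHLHE40 summit was 38 bp, with a range of 2 to 1425 bp, and the median over all 14123 shared regions was 35 bp. Regions of 1 gene share their locus and are not replicates. Overlapping GATA3 and BHLHE40 regions occurred in the windows of NOTCH1, RBPJ, HES1, HES4 and DTX1, 5 of 8, against 60.5% of coding genes. With H3K27ac at the same GATA3 region, 4 remained (NOTCH1, RBPJ, HES1 and DTX1), against 55.2%. At NOTCH1 the shared place was the start of the neighbour SEC16A, and at DTX1 it was an end of the record of the neighbour RASAL1. HES1 and RBPJ were the members that had such places at the gene itself.

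Other genes of the pathway were counted in the same way, 46 in all by role. A BHLHE40 summit lay within 1 kb of a start of 30 of them, against 45.2% of coding genes. A GATA3 summit did so for 6 (ADAM17, MAML1, MAML3, SNW1, KDM5A and TRIB2), against 20.5%. BHLHE40 was at the starts of 7 of 8 genes for the proteases that cut the receptor, all but PSEN2, and each of these 7 had an H3K27ac summit there. It was at 8 of 9 nuclear partners of RBPJ, 7 of 9 genes of endocytosis and turnover, and 2 of 4 sugar transferases that modify the receptors. Among 10 further targets it was at HES7, CCND3 and TRIB2. The ligand genes DLL4, JAG1 and JAG2 had a BHLHE40 summit at the start. None of the 5 ligand genes had an H3K27ac summit there, against 54.4% of coding genes with 1. A GATA3 region among the strongest 5% of its list lay in the windows of 9 of the 46 genes, against 9.58% of coding genes. For BHLHE40 this also held for 9 of the 46, against 11.4%. Within its own record, KDM5A, a histone demethylase that works with RBPJ, held a GATA3 region with a signal value of 86.7 (rank 395), shared with BHLHE40 and H3K27ac. LFNG, a sugar transferase that modifies Notch receptors, held 1 with a signal value of 66.9 (rank 783), 4244 bp downstream of its start, without H3K27ac. FBXW7, which targets the Notch intracellular domain for destruction, held a GATA3 region of 64.5 (rank 855) inside the gene and had a BHLHE40 region of 42.9 (rank 558) 134 bp upstream of a start. MAML1, the coactivator that joins the Notch complex, held a GATA3 region of 57.5. CCND3, a G1 cyclin, held a GATA3 region of 52.9 (rank 1318), 2791 bp downstream of a start. These GATA3 regions of LFNG, FBXW7, MAML1 and CCND3 also overlapped BHLHE40, and all but that of LFNG overlapped H3K27ac. EP300 and CREBBP, the acetyltransferases recruited by the Notch complex, had BHLHE40 regions with signal values of 36.5 and 34.6 at 944 and 103 bp upstream of their starts. A BHLHE40 region of 32 had its summit 43 bp upstream of a KDM5A start, inside the record of the neighbour CCDC77. For POFUT1, DTX3L and HES7, and for BHLHE40 at MAML1, regions among the strongest 5% lay in the window but outside the gene and nearest to other genes.

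**Figure D4:**
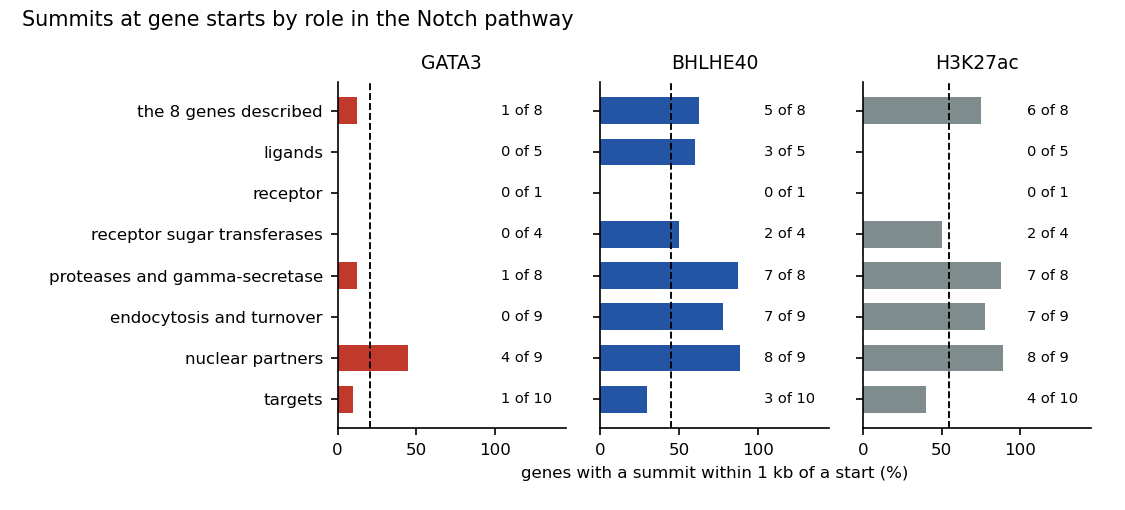
Share of genes with a summit within 1 kb of a start, by role in the Notch pathway and by list, with the counts written beside each bar. The dashed line is the share over all protein-coding genes, 20.5% for GATA3, 45.2% for BHLHE40 and 54.4% for H3K27ac. The nuclear partners have the highest counts for both factors, 4 of 9 and 8 of 9, and no ligand gene has an H3K27ac summit at its start.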

How the data were processed

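Peak regions of GATA3, BHLHE40 and H3K27ac in stimulated Ctrl_LV Jurkat cells were used as deposited. Per the submitters' processing notes, MACS2, bcl2fastq 2.20 and build hg38 were used, with no roles given. The aligner, filters and use of input are not given in the sources used here. The deposited files give a score, a signal value and a −log10 q per region, which were used, and a −log10 p, which was not. Each factor list is named for an irreproducible discovery rate (IDR) of 0.05, which keeps regions whose ranks repeat between samples, and its scores ran from 540 to 1000. If scores follow −125 times log2 of the IDR, 830 corresponds to 0.01. The authors' H3K27ac list is named as pooled and holds many weak regions. Weak regions and counts depend on depth, which is unknown.

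Samples were grouped by titles. Coordinates are 1-based. Genes and promoters came from RefSeq GRCh38.p14. Starts came from the promoter table (15842 of 20033 coding genes), otherwise from both record ends, and exons, introns and untranslated regions were not told apart. Overlap meant at least 1 bp. A region was described per gene if it was the strongest of its list, within 1 kb of a start, or shared by all 3 lists, and some further regions were chosen after their values were seen. Other pathway genes were named for a region among the strongest 5%, and 1 such gene is not reported here. Overlap and motif functions were tested on simulated data. Members and lists were chosen with earlier results of these data known. Python 3.11.15, numpy 2.4.6, pandas 2.3.3 and matplotlib 3.10.9 were used. Alternatives changed the window, the overlap, the thresholds and the distance to a start.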

Additional observations from a re-analysis of the deposited data

How the results depend on the processing

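Of 43 alternative settings for 9 counts and medians (41 planned, 2 added after seeing the data), 32 stayed within 1.5 times the reported value and 11 did not. The 32 include settings that asked for the summit or the whole region inside the window. Those could not change a count, because no region crossed a window edge. With 100 kb on each side of the genes, GATA3, BHLHE40 and H3K27ac regions numbered 34, 50 and 137. With 10 kb, BHLHE40 regions numbered 14, and 11 of them overlapped H3K27ac. A −log10 q of at least 5 left 28 H3K27ac regions and 4 GATA3 regions that overlapped them, and 3 GATA3 regions overlapped H3K27ac over at least 50% of their length. BHLHE40 summits within 500 bp of a start were found at 3 genes. GATA3 summits were found at 3 genes within 5 kb, and at 0 genes within 1 kb with a score of at least 830. These settings include stricter score and q-value limits as well as changed distances, and why the values moved was not tested. No paired analysis was possible because the 2 samples of a group share a single list without values of their own, and leaving out each replicate was not run for the same reason.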
